A study of Mus musculus with 35 samples.

Results

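Hearts of IRS1KO mice, in which insulin receptor substrate 1 is deleted in heart muscle cells, were compared after transaortic constriction (TAC) and after a sham operation. The comparison takes 6 TAC and 6 sham libraries, chosen by the genotype and the surgery in their labels, out of 35 libraries in 6 groups, and it covers every gene in the table. Messenger RNA of the heart apex was sequenced. Both groups carry the genotype alphaMHC-Cre X IRS1-flox on the strain C57Bl/6/FVB, with an age of 6 weeks, and the apex was taken on day 3 after surgery. The Cre recombinase is driven by the alpha myosin heavy chain promoter of cardiomyocytes, so fibroblasts, vessels and blood cells of the apex are not its target. The other groups were used to ask whether a response differed between genotypes. They are sham and TAC hearts labelled IRS2-flox and named WT (6 and 5 libraries) and sham and TAC hearts labelled alphaMHC-Cre X IRS2-flox and named IRS2KO (6 and 6 libraries). None of the 35 libraries is labelled as Cre without a floxed gene or as floxed Irs1 without Cre. Whether each library comes from a mouse of its own is not stated in the labels, so p-values measure the spread between libraries.

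In TAC the aorta is tied down to a narrow lumen, so the left ventricle must eject against a high pressure. Cardiomyocytes under such a load enlarge, re-express genes of the fetal heart and turn away from fatty acids as a fuel, while fibroblasts become matrix-producing cells and monocytes enter from the blood. IRS1 is an adaptor protein that the insulin and IGF1 receptors phosphorylate, and it passes their signal on to phosphatidylinositol 3-kinase and Akt, which promote glucose uptake and protein synthesis and hold FoxO transcription factors out of the nucleus.

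The 12 libraries held 11707111 to 14609467 reads assigned to genes, with 19195 to 20803 genes detected in each. The targeted gene, Irs1, stood at 0, 28.2 and 43.8 in sham and 0, 20.4 and 80.3 after TAC (lowest, median and highest normalized count of the 6 libraries), and did not differ between the groups (adjusted p = 0.89). The 0 came from replicate 1 in both groups, while the other libraries held 19.7 or more in sham and 16.7 or more after TAC. In the WT libraries Irs1 ranged from 172 to 309.8 in sham and from 135 to 221 after TAC, above every IRS1KO library. The first principal component of the tested genes held 77.9% of the variance and separated all 6 TAC from all 6 sham libraries. TAC replicate 5 lay nearest to sham: over the 2354 called genes that changed by at least 1 on the log2 scale it reached a median of 64.8% of the mean difference, against 88.4% to 121% for the other 5 TAC libraries.

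Of the 13695 genes tested, 4442 (32.4%) were higher after TAC and 4335 (31.7%) were lower, so 64.1% were called in either direction, and the median log2 fold change of all genes was -0.01. Called means an adjusted p under 0.05 in a limma fit of log2(value + 1), and the counts below are to be read against these shares. The 6 TAC values lay wholly outside the range of the 6 sham values for 5087 genes (37.1%), of which 2803 were higher (20.5%) and 2284 lower (16.7%). With the libraries scaled to one common total instead, the log2 fold change of the median gene is 0.30, and 7181 genes are called higher and 2164 lower. Directions near 0 therefore depend on the scaling, and for gene lists whose balance turns the counts under that scaling are given beside the main ones. Long non-coding genes fell more often than they rose: 24 of 187 lincRNA genes were higher and 93 lower, and 12 of 144 antisense genes were higher and 74 lower. No source states the strand setting of the counting, so reads of an antisense gene and its partner cannot be told apart. Tissue RNA of this kind cannot tell fewer cells of a type from less RNA per cell.

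The largest rise among genes with a mean of at least 100 in 1 group was that of Sprr1a, a small proline-rich protein that cardiomyocytes make under mechanical stress. It lay between 1.02 and 2.91 in sham (median 1.57) and between 712 and 10204 after TAC (median 3944), and no 2 libraries of different groups came near each other (log2 fold change 10.22 ± 0.81 (SE), adjusted p = 1.1e-11). Next came Spp1 (osteopontin, a matrix protein and cytokine), between 0 and 12.4 in sham (median 3.69) and between 542 and 3265 after TAC (median 1928), and Tnc (tenascin-C, an adhesive glycoprotein of wounded tissue), between 11.2 and 30.04 in sham (median 17.7) and between 3005 and 9096 after TAC (median 7235). The group mean of Tnc was 338-fold higher after TAC (log2 fold change 8.32 ± 0.51 (SE), adjusted p = 2.8e-14), and TAC 5 was the lowest of the TAC libraries. Cthrc1, a secreted protein of activated fibroblasts, and Col11a1, a minor fibrillar collagen, followed with log2 fold changes of 7.66 and 7.00. Col11a1 lay between 0 and 3.06 in sham (median 2.003) and between 57.5 and 558 after TAC (median 405), so the TAC libraries spread widely but none came near a sham library. Among the other largest rises were Muc15, Cdh3 (P-cadherin), Cemip (a hyaluronan-degrading protein), Timp1, Adam8, Col12a1, Lox, Adam12 and Chil3, with log2 fold changes from 5.43 to 6.26.

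The largest fall was that of Ces1d, a carboxylesterase that hydrolyses stored lipid. Its values were between 1122 and 1783 in sham (median 1242) and between 16.4 and 184 after TAC (median 29.8), a 20.8-fold fall of the mean (log2 fold change -4.90 ± 0.53 (SE), adjusted p = 4.1e-09). The groups did not overlap, and the highest TAC library was again TAC 5. Cngb3 (a cyclic nucleotide-gated channel subunit), Lgals4 (galectin-4), Mylk4 (a myosin light chain kinase) and Kcnv2 (a silent potassium channel subunit) came next, with log2 fold changes of -3.68, -3.42, -3.32 and -3.30. Mylk4 was the most abundant of these and went from a median of 4230.4 to 391. The remaining large falls were Ppl, Scn4b, Efnb3, Klhl33, Kcnip2, Myh7b, Cacna1s, Gnb3, Acot1 and Ucp3, from -3.22 to -2.61. Several of them encode ion channel subunits (Scn4b, Kcnip2, Cacna1s) or mitochondrial proteins (Ucp3) of muscle.

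**Figure D1:**
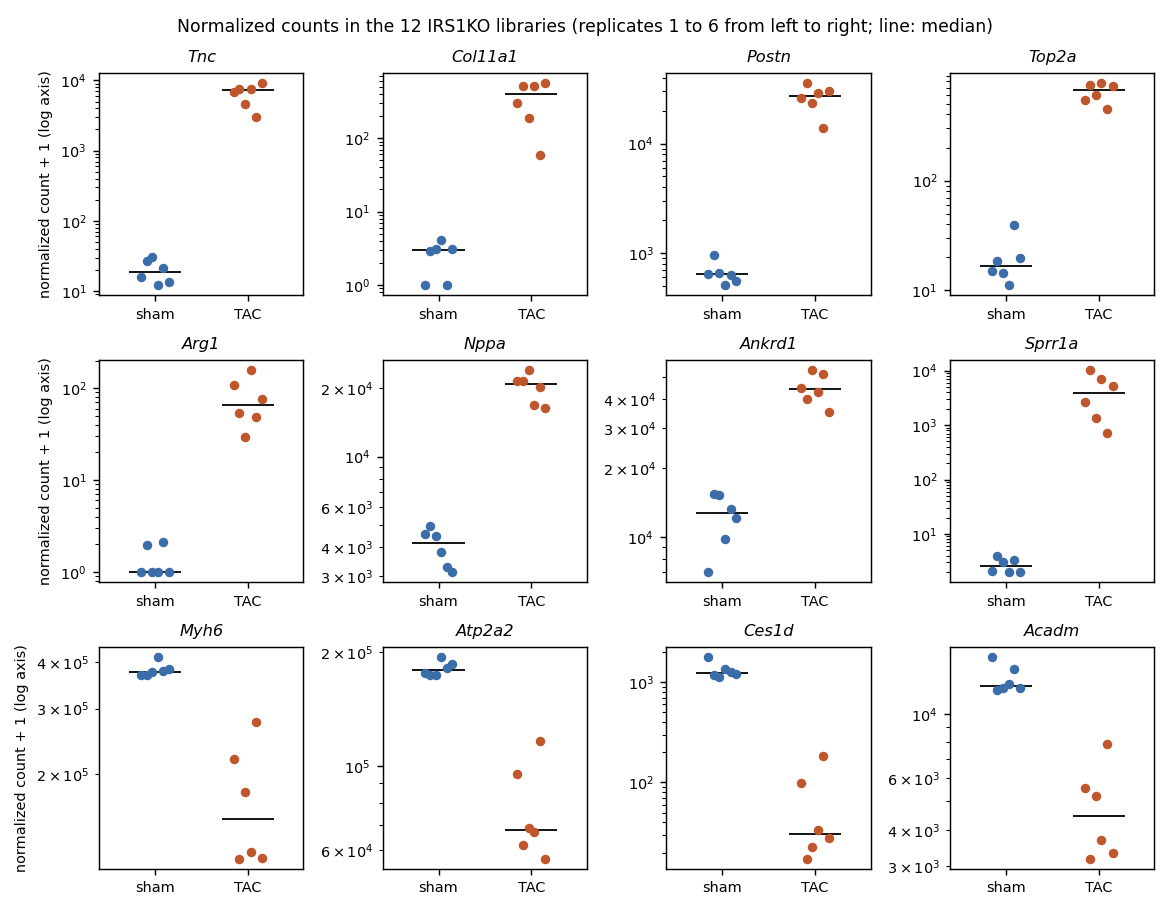
Normalized counts plus 1 of 12 genes on a log axis in the 6 sham and the 6 TAC libraries of IRS1KO hearts, each point 1 library and each line a group median. In all 12 panels the groups are apart, and TAC 5 is the TAC library nearest to sham for Tnc, Col11a1, Postn, Myh6, Atp2a2, Ces1d and Acadm.

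By mean normalized count rather than fold, the largest gains were those of Clu (clusterin, a secreted chaperone), whose mean rose from 6507 ± 433 (SD, n = 6) to 46681 ± 17389, and of Des (desmin, the intermediate filament of muscle), from 24072 ± 1190.4 to 61816 ± 17114. Ankrd1, Col3a1, Postn, Col1a1, Col1a2, Hspb7, Nppa and Eef1a1 completed the 10 largest gains. The 10 largest losses were 7 transcripts of the mitochondrial genome together with Myh6, Atp2a2 and Mb, which encode the main motor, the calcium pump and the oxygen-binding protein of cardiomyocytes. Mitochondrial genes took 28.6 ± 1.23% of all reads in sham and 19.5 ± 3.22% after TAC (SD, n = 6 each; exact two-sided permutation test, p = 0.00216, the smallest that 6 against 6 allows), and the 2 groups did not overlap.

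Genes of the matrix mostly rose, and are given in the order signal, fibre, cross-link and breakdown. Among the ligands, Tgfb2 (transforming growth factor beta 2) went from a median of 163 to 871, with 141 to 174 in sham and 491 to 1316 after TAC, a 5.67-fold rise, while Tgfb1 rose 1.82-fold. Inhba, the activin A subunit, rose 10.6-fold, Gdf6 14.7-fold, and the activin-binding Fstl3 and secreted Fstl1 8.35-fold and 6.71-fold. Of the 26 tested members of the TGF-beta, activin and BMP list (29 listed), 15 rose and 7 fell, the falls being Tgfbr3, Acvr2a, Bmp4, Bmp6, Bmp7, Smad3 and Smad6. With the same total per library the log2 fold change of Smad3 was 0.02, and Acvr2a, Bmp4, Bmp6 and Smad6 were not called. Smad3 lost its call without TAC replicate 1 or 3, and Smad6 without sham replicate 1 or 5 or TAC replicate 2 or 6. Smad7, a feedback inhibitor of the pathway, was 199 ± 20.7 and 223 ± 43.04 and did not pass the test (adjusted p = 0.27).

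Of 9 fibrillar collagens tested, 8 rose and Col11a2 fell, and their median log2 fold change was 3.22. Col1a1, the main chain of scar collagen, lay between 1004 and 1539 in sham (median 1274) and between 10437 and 35599 after TAC (median 23921), and rose 19.04-fold on the means (log2 fold change 4.14 ± 0.35 (SE), adjusted p = 3.1e-11). Col3a1 rose 9.63-fold and Col5a2 13.3-fold, each with no overlap between groups. Among the other collagens 15 of 19 rose, led by the fibril-associated Col12a1 (64.1-fold) and Col8a1 (12-fold). The basement membrane chain Col4a1 rose 2.31-fold, whereas Col4a3, Col4a4, Col6a6 and Col13a1 fell. The falls of Col11a2, Col4a3 and Col13a1 were not called with the same total per library, nor that of Col13a1 without sham replicate 5 or TAC replicate 2.

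Enzymes that fold and cross-link collagen rose in 20 of 21 cases, with Pcolce2 as the exception that was not called. Lox, which cross-links collagen and elastin, stood at 75.4, 78.8 and 90.7 in sham and 1580.0, 4343 and 5900.1 after TAC. That is a 50.5-fold rise (log2 fold change 5.53 ± 0.38 (SE), adjusted p = 4.1e-13), and its lowest TAC library held far more than its highest sham library. P4ha3, a prolyl hydroxylase subunit, rose 43.7-fold, Loxl2 5.81-fold, and the collagen chaperone Serpinh1 3.63-fold. Matricellular and adhesive proteins rose in 19 of 23 cases (median 1.84). Postn (periostin), the widely used marker of activated fibroblasts, lay between 509 and 956 in sham (median 634) and between 13981 and 35544 after TAC (median 27435), a 40.2-fold rise. Fibronectin (Fn1) rose 15.4-fold, Thbs1 29.5-fold, Thbs4 19.9-fold, Ltbp2 36.1-fold and Cilp 13.7-fold. Ccn2 and Ccn1, rapid targets of the YAP and TGF-beta pathways, rose less, by 3.66-fold and 2.29-fold.

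Proteoglycan and elastic fibre genes rose in 17 of 22 cases. Vcan (versican) rose 8.42-fold and Fbn1 (fibrillin-1) 6.24-fold, while Dcn (decorin), an abundant proteoglycan of quiescent fibroblasts, went the other way, 4334 to 5919 in sham and 3429 to 4534 after TAC (log2 fold change -0.36 ± 0.14 (SE), adjusted p = 0.022), with overlapping groups, and the call was lost without sham replicate 1 or TAC replicate 6 and with either other scaling. Among proteases and their inhibitors 18 of 24 rose and 2 fell (Mmp15, Timp4). Timp1, an inhibitor of metalloproteinases, lay between 17.6 and 31.2 in sham (median 23.8) and between 795 and 2237 after TAC (median 1713), a 68.2-fold rise. Timp3, by contrast, was not called (1706 to 2896 in sham and 1584 to 2709 after TAC), and Timp4, the cardiac inhibitor, fell 2.42-fold with overlapping groups. The membrane-bound metalloproteinase Mmp14 rose 7.88-fold and Adam12 48.6-fold. Integrins and laminins rose in 16 of 23 cases, among them the fibronectin receptor subunit Itga5 (4.24-fold) and the collagen receptor subunit Itga11 (4.35-fold), while Itgb6, an epithelial integrin subunit, fell 2.39-fold.

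Markers of fibroblasts moved apart. Of 12 markers of activated fibroblasts 10 rose (median 3.19), among them Postn, Cthrc1, Tnc and Col11a1 as above and Meox1, a transcription factor (6.26-fold). Lrrc15, of the same list, was the 1 that fell (log2 fold change -2.21). Acta2, the smooth muscle actin of myofibroblasts and of arterial muscle, was not called, with 4409 to 6589 in sham and 3549 to 6024 after TAC (log2 fold change -0.09 ± 0.16 (SE), adjusted p = 0.62), and the groups overlapped. Of 11 markers of resting fibroblasts 4 rose and 5 fell, which becomes 5 and 2 with the same total per library. Pdgfra, the general fibroblast receptor, rose 1.37-fold, Mfap4 5.61-fold and Col15a1 4.46-fold, while Scara5 fell 5.14-fold and Dpep1 1.602-fold, the latter not called with the same total per library. The Wnt list held both directions: the secreted Wnt antagonists Sfrp1, Sfrp2, Frzb and Dkk3 rose 5.76-fold, 5.72-fold, 4.64-fold and 4.04-fold, while Wif1 fell 4.62-fold and Axin2, a common readout of Wnt signalling, 1.704-fold. In all, 6 of 16 Wnt genes tested rose and 9 fell, but with the same total per library 7 were higher and 4 lower.

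Genes of incoming monocytes and of macrophages rose with the matrix genes. Of 13 tested markers of recruited monocytes and macrophages 12 rose (median 3.31) and Fabp5 was not called. Ccr2, the receptor that brings monocytes into tissue, lay between 7.24 and 40.7 in sham (median 12.7) and between 114 and 709 after TAC (median 389), a 22.3-fold rise (log2 fold change 4.39 ± 0.47 (SE), adjusted p = 4.2e-09). Arg1, an arginase of wound macrophages, was 0 to 1.13 in sham and 28.6 to 156 after TAC, which is given without a fold because its sham mean was below 3. Lgals3 (galectin-3) rose 27.7-fold, Gpnmb 18.7-fold, Trem2 11.02-fold and the pan-macrophage genes Cd68 and Adgre1 7.61-fold and 5.25-fold. Markers of resident macrophages were mixed: 6 of 10 rose, Lyve1 and Cd163 were not called, and 2 fell. The fallers were Timd4, 15.1 to 23.7 in sham and 1.55 to 7.62 after TAC, and Mgl2, 74.4 to 125 in sham and 9.97 to 56.5 after TAC, neither with any overlap.

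The ligands that draw these cells rose as well, 16 of 22 tested chemokine and receptor genes (29 listed) being called higher and 4 lower. Ccl2, the ligand of Ccr2, was between 2.04 and 12.4 in sham (median 5.69) and between 61.9 and 227 after TAC (median 95.2), a 20.4-fold rise, and Ccl7 rose 13.03-fold. Cxcl12, which holds progenitor cells in place and is made by stromal cells, fell 1.51-fold. Cytokine and receptor genes rose in 20 of 24 cases. Il6 was listed at 0 in all 6 sham libraries and at 4.86 to 14.95 after TAC, and Il11 at 0 in all 6 and at 1.91 to 7.83; both were below the level for testing. Lif, of the same family, rose 11.2-fold, their signalling target Socs3 6.26-fold and the receptor Osmr 2.96-fold. Tnfrsf12a, the receptor of TWEAK, rose 3.69-fold, Hbegf 4.37-fold and Il33 5.19-fold, while its receptor gene Il1rl1 was not called. Complement and innate receptor genes rose in 16 of 21 cases, C1qa 3.14-fold and C5ar1 4.49-fold. C3 was called lower with overlapping groups (692 to 1009 in sham and 474 to 970.4 after TAC, adjusted p = 0.047), a call lost in edgeR, in DESeq2 and without any 1 of 9 libraries (sham 1, 2, 4, 5 or 6, TAC 1, 3, 4 or 6).

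Antigen presentation genes were not called higher alongside the macrophage genes. None of the 14 genes of the MHC list was higher and 3 were lower (Cd74, H2-Eb1 and Tap2), and the list's median was -0.27. Cd74, the invariant chain, lay between 1209.6 and 3069 in sham (median 1476) and between 648 and 1455 after TAC (median 1169). Sham replicate 5 held the highest value and the other sham libraries overlapped the TAC group, and the call was adjusted p = 0.026. The list's median was 0.04 with the same total per library, so the direction turns there. In the immunoproteasome list 4 of 5 genes fell (2 with the same total per library), Psme1 1.86-fold and Psmb9 1.96-fold. Interferon-stimulated genes were split, 3 of 20 higher and 5 lower, or 4 higher and 2 lower with the same total per library: Mx1 rose 6.2-fold while Irf1 fell 1.83-fold, and Ifit1, Isg15 and Irf7 were not called. The calls of Psmb9, Cd74 and H2-Eb1 were lost with the same total per library. Those of Cd74 and H2-Eb1 were also lost with library weights and without filter in limma or edgeR. Without sham replicate 5 or TAC replicate 3 or 5 neither of these was called, and H2-Eb1 lost its call without sham replicate 3 or 4 as well.

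The genes of cell division rose in step. All 25 genes of the mitosis list were tested and all 25 were called higher, with log2 fold changes from 1.11 to 5.12 and a median of 4.23, and the groups did not overlap for 24 of them, against 20.5% of all tested genes that were higher without overlap. Mki67, the proliferation antigen, lay between 19.4 and 73.4 in sham (median 47.1) and between 677 and 1340.1 after TAC (median 1014), a 21-fold rise (log2 fold change 4.45 ± 0.36 (SE), adjusted p = 1.3e-11). Top2a, the topoisomerase of mitotic chromosomes, stood at 10.2, 15.7 and 38.4 in sham and 446, 666 and 768 after TAC, and Cdk1, the kinase that starts mitosis, at 7.14, 9.998 and 14.7 in sham and 103, 192 and 240.1 after TAC. The cyclins that Cdk1 pairs with, Ccnb1, Ccnb2 and Ccna2, went from medians of 3.08, 3.17 and 7.19 to 137, 118 and 236. Even the lowest TAC library, which for Ccnb1 held 90.2, stood well above every sham library. Earlier steps of the cycle rose less: 22 of 25 DNA replication genes were higher (median 1.38), with Mcm5 at 5.38-fold, E2f1 at 6.67-fold and the clamp protein Pcna at 1.44-fold, while Dut fell. In the list of G1 cyclins, kinases and inhibitors 9 of 16 rose and 3 fell. Cdkn1a, the p21 inhibitor, rose 3.28-fold with overlapping groups and Cdkn1c, the p57 inhibitor, fell 3.84-fold without overlap, while the D cyclins Ccnd1 and Ccnd2 were not called.

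Promoters of mitotic genes are known for the CCAAT box, to which NF-Y binds. The letters CCAAT, on either strand, stood within 250 bases before the start of 18 of the 21 mitosis genes with a RefSeq promoter (85.7%) and of 13 of 21 DNA replication genes (61.9%), against 36.2% of the 10174 tested genes with a promoter and 34.5% of all 27025 promoters. The letters TTTGAA, the core of the cell cycle homology region, stood in 7 of the 21 mitosis promoters (33.3%) against 10.5% of the tested genes. A match of letters describes the sequence and is not a measured binding site. The 120 bases before the start of 4 members are shown 5′ to 3′ on the gene's strand (RefSeq, GRCm38.p6), with each CCAAT or its complement ATTGG in capitals, because every gene of their list was called higher and each of these 4 carries 2 or 3 copies.
Ccnb1 (chr13:100786487-100786606, minus strand): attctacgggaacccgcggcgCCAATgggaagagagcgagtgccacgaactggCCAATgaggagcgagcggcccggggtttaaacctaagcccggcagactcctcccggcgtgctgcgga
Ccnb2 (chr9:70421555-70421674, minus strand): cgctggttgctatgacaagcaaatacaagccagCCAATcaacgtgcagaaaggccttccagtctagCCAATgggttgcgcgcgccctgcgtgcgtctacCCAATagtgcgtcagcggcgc
Cdk1 (chr10:69352913-69353032, minus strand): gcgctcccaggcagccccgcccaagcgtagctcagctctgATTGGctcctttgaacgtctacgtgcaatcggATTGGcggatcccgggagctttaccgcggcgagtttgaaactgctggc
Top2a (chr11:99024190-99024309, minus strand): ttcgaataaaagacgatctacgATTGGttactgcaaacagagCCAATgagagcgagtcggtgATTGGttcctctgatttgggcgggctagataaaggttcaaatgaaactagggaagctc

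Genes for making and folding proteins rose in smaller steps. Of 81 tested cytosolic ribosomal protein genes 71 were higher and 1 lower (median 0.49). The gene that fell was Rpl3l, the muscle form of Rpl3: it lay between 2462 and 3630.0 in sham (median 2855) and between 257 and 1147 after TAC (median 434), while Rpl3 lay between 1213 and 1736 in sham (median 1446) and between 3926 and 5319 after TAC (median 4432). Neither pair of groups overlapped, and the log2 fold changes were -2.55 and 1.64. Uptake and synthesis of amino acids rose in 12 of 18 cases. Slc7a5, the large neutral amino acid transporter, rose 2.85-fold, the serine synthesis enzymes Phgdh and Psat1 5.32-fold and 3.74-fold, the mitochondrial folate enzyme Mthfd2 4.77-fold and Pycr1, which makes proline, 7.09-fold. Aminoacyl-tRNA synthetases rose in 12 of 20 cases, by less (median 0.28). In the integrated stress response list Atf4 rose 1.53-fold and Gdf15 19.5-fold, whereas Ddit3 (CHOP) fell 1.497-fold and Trib3 and Chac1 were not called; the call of Ddit3 was lost with the same total per library.

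Endoplasmic reticulum folding genes rose in 15 of 19 cases (median 0.62), and Herpud1 fell. Manf rose 2.25-fold, Pdia4 2.28-fold, Xbp1 1.81-fold and Calr 1.55-fold. Hspa5 (BiP), the main chaperone of this compartment, was not called, with 5036 to 6944 in sham and 5783 to 7395 after TAC and overlapping groups. The ER stress element, CCAAT followed by any 9 bases and CCACG on either strand, stood before 7 of the 16 folding genes with a promoter (43.8%) and before 0.128% of the tested genes. The 7 genes with these letters had a median log2 fold change of 0.41, with 5 called higher, and the 9 without had a median of 1.10, with 7 higher and 1 lower. Bases 150 to 31 before the start are shown for a gene that was not called and one that was, with the fixed letters in capitals, since both hold the element.
Hspa5 (chr2:34771940-34772059, plus strand): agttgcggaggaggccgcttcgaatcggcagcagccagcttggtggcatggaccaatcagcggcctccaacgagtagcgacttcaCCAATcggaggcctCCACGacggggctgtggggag
Creld2 (chr15:88819496-88819615, plus strand): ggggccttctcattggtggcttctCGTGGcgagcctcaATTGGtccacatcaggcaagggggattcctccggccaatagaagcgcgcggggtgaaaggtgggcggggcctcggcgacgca
Creld2, an ER-resident protein, rose 1.599-fold, and its element lies on the opposite strand. Heat shock genes rose in 12 of 24 cases and fell in 6 (17 and 3 with the same total per library), Hspb1 rising 2.98-fold and Hsph1 falling 1.397-fold (not called with the same total per library). Proteasome subunits moved little: 9 of 34 were higher, none was lower, and the median was 0.04, but 32 were called higher with the same total per library.

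**Figure D2:**
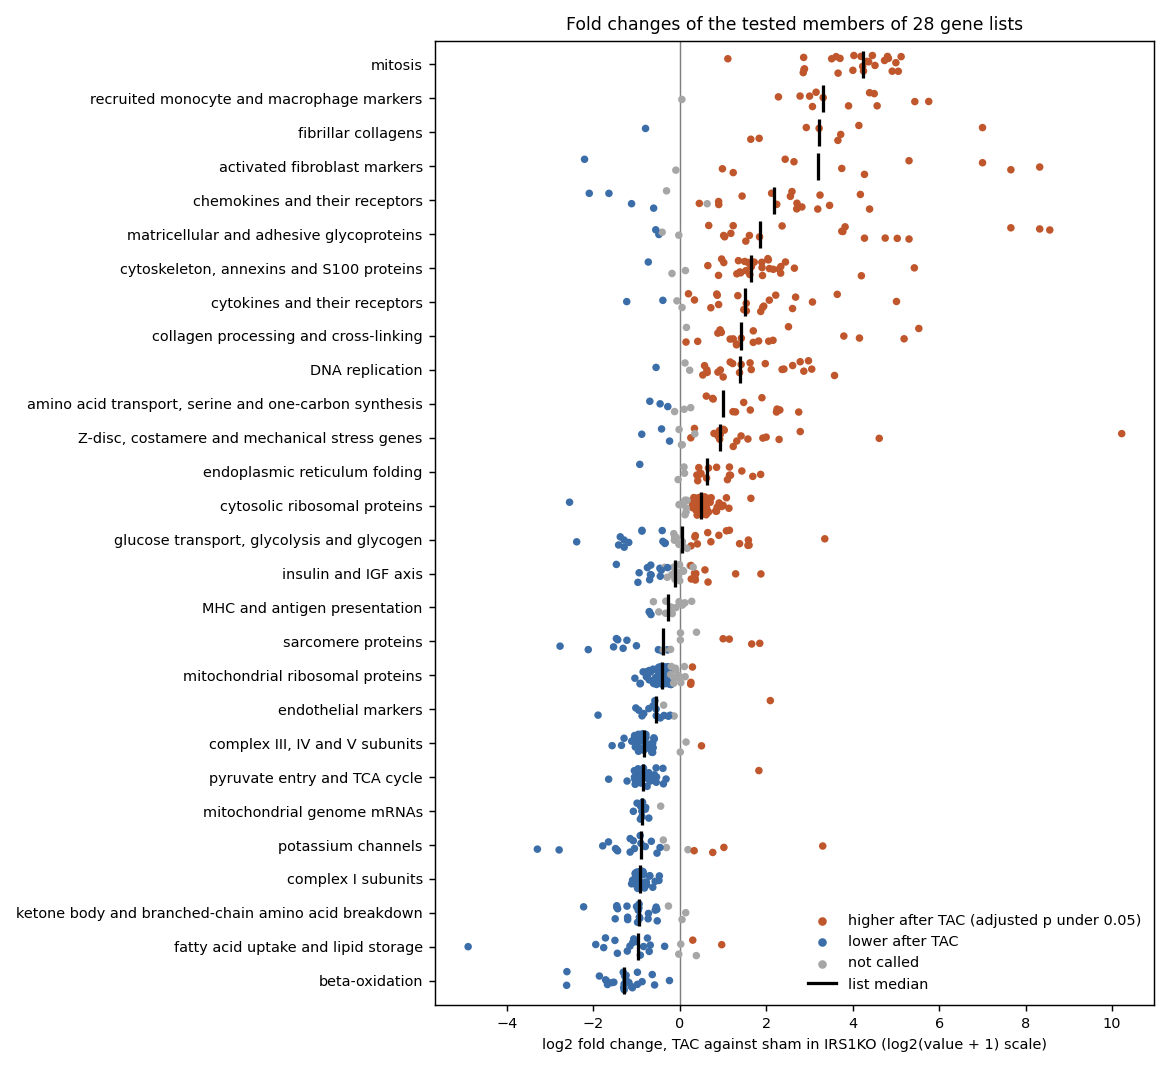
Log2 fold changes of TAC against sham for the tested members of 28 gene lists, each point 1 gene coloured by its call and each black bar the median of the list. The medians of mitosis, monocyte and matrix lists lie to the right of 0 and those of fuel oxidation and respiratory chain lists to the left. Some of these lists have members across 0, and glycolysis, insulin signalling and sarcomere lists straddle it.

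Many cardiomyocyte genes known to respond to mechanical load rose. Nppa, the atrial natriuretic peptide that the ventricle re-expresses under strain, lay between 3125 and 4936 in sham (median 4166) and between 16311 and 23883 after TAC (median 20703), a 4.94-fold rise (log2 fold change 2.31 ± 0.22 (SE), adjusted p = 6.0e-10). Nppb, its B-type partner, lay between 1043 and 2353 in sham (median 1612) and between 4088 and 9244 after TAC (median 7277), a 4.13-fold rise. Neither gene overlapped between the groups. Corin, the protease that activates these peptides, fell 1.47-fold, the clearance receptor Npr3 1.86-fold and the signalling receptor Npr1 1.51-fold. Z-disc and costamere genes rose in 19 of 26 cases (median 0.93). Ankrd1, a titin-binding stress protein, rose 3.69-fold, Xirp2 4.16-fold, Flnc (filamin C) 2.99-fold, Fhl1 4.93-fold and Des 2.57-fold. Csrp3 and Bag3 were not called, and Fhl2, Nexn and Ldb3 fell. With the same total per library the log2 fold change of Nexn was 0.07 and Ldb3 was not called. Nexn lost its call without any 1 of 8 libraries (sham 3, 4, 5 or 6, TAC 1, 2, 4 or 6). Cytoskeleton, annexin and S100 genes rose in 29 of 32 cases, among them the tubulins Tubb2b (19.8-fold), Tubb6 (4.37-fold) and Tubb3 (53.4-fold) and vimentin, Vim (4.695-fold). The exception was S100a1, the calcium sensor of cardiomyocytes, which fell 1.66-fold.

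The contractile genes of the adult ventricle mostly fell or were not called. Of 21 tested sarcomere genes 11 fell and 4 rose (Myh7, Acta1, Tpm2 and Mybpc2); 8 were lower and 5 higher with the same total per library, and 8 lower and 8 higher under quantile normalization. Myh6, the fast adult myosin, lay between 369091 and 413176 in sham (median 377682) and between 118376 and 275778 after TAC (median 151244), a 2.21-fold fall (log2 fold change -1.23 ± 0.22 (SE), adjusted p = 2.0e-05), and Myl2 and Tnni3 fell 2.702-fold and 2.65-fold. Actc1, the cardiac actin, was 133728 ± 7233 and 135820.0 ± 18779 (SD, n = 6) and was not called. Tnnt2 fell 1.4-fold, although it turned to a rise under quantile normalization and was not called with the same total per library. Myh7, the slow fetal myosin, stood at 1716, 3391 and 4616 in sham and 2696, 5345 and 25995 after TAC; TAC replicate 3 stood far above the rest and TAC replicate 5 next, the groups overlapped, and without replicate 3 the rise was not called. Tcap (telethonin) fell 4.09-fold and Myh7b 6.28-fold. Mhrt, the antisense RNA of the Myh7 locus, fell 3.63-fold.

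Calcium handling genes fell in 12 of 22 cases and rose in 3, a balance that turns to 6 lower and 7 higher with the same total per library. Atp2a2, the pump that refills the sarcoplasmic reticulum, lay between 174001 and 194024 in sham (median 179004) and between 56980.3 and 116434 after TAC (median 67683), a 2.33-fold fall (log2 fold change -1.27 ± 0.20 (SE), adjusted p = 1.7e-06). Its regulator Pln fell 2.19-fold and the histidine-rich calcium buffer Hrc 5.08-fold, while the release channel Ryr2 was not called (21227 to 31983 in sham and 19820.5 to 27682 after TAC). Rcan1, a target and inhibitor of calcineurin, rose 4.01-fold, with no overlap. Potassium channel genes fell in 17 of 24 cases and rose in 4 (median -0.91). Kcnip2, the subunit that sets the transient outward current, lay between 2843 and 3434 in sham (median 3104) and between 212 and 1258 after TAC (median 480.1), and the groups did not overlap. Its partner Kcnd2 fell 2.59-fold, the inward rectifier Kcnj2 2.86-fold, Kcnj3 3.14-fold and Kcnv2 8.69-fold, whereas Kcnq1 rose 1.26-fold with overlapping groups and Kcnj14 11.9-fold from a low level. Among sodium channel and connexin genes the beta subunit Scn4b fell 10.3-fold and the connexin Gja1 was not called.

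Of 26 genes of adrenergic, angiotensin and endothelin signalling 10 fell and 4 rose, but with the same total per library 7 were lower and 9 higher, so the direction of the list depends on the scaling. Agtr1a, the angiotensin receptor, lay between 407 and 479 in sham (median 429.6) and between 116 and 378 after TAC (median 177), a 2.15-fold fall. Adra1a and Adra1b, the alpha-1 adrenergic receptors, fell 3.06-fold and 2.38-fold, and Adrb1 fell 1.297-fold with overlapping groups, a call lost without TAC replicate 3 or with the same total per library. The kinase Grk5 rose 2.16-fold and the angiotensin-converting enzyme Ace 1.91-fold. Among transcription factors of the list 5 of 30 rose and 12 fell, with a median of -0.28 that becomes 0.03, with 11 higher and 9 lower, with the same total per library. Runx1 rose 8.58-fold, Sox9 6.23-fold and Etv4 10.2-fold. Esrra, the estrogen-related receptor that drives oxidative genes, fell 1.48-fold and Rxrg 2.75-fold, while Gata4, Ppara and Ppargc1a were not called.

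Genes of fat oxidation fell as a block. Every one of the 24 beta-oxidation genes was tested and called lower, the log2 fold changes having a median of -1.28 and a range from -2.62 to -0.24. Acadm, the medium-chain acyl-CoA dehydrogenase, lay between 12115 and 15664 in sham (median 12430.4) and between 3180.1 and 7848 after TAC (median 4461), a 2.75-fold fall (log2 fold change -1.53 ± 0.22 (SE), adjusted p = 5.4e-07). TAC 5 held the highest value and the groups did not overlap. Hadha, of the trifunctional protein, fell 2.36-fold, Cpt2 2.39-fold, Acot1 5.11-fold and Ucp3 4.34-fold, and Cpt1b fell 2.19-fold from a low level with overlapping groups. Uptake and storage of fatty acids fell in 17 of 22 cases: the carriers Cd36 and Fabp3 1.66-fold and 2.12-fold, lipoprotein lipase (Lpl) 2.16-fold, the acyl-CoA synthetase Acsl1 2.52-fold and the triglyceride lipase Pnpla2 1.99-fold. Ketone and branched-chain amino acid breakdown fell in 22 of 25 cases, Oxct1 1.89-fold and Bckdha 2.69-fold, whereas Bdh1, Bcat2 and Slc25a44 were not called.

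Most mitochondrial energy genes fell. In the list of pyruvate entry and the citric acid cycle 33 of 34 were lower (median -0.86); Idh2 fell 2.87-fold, Sdha 2.01-fold, Cs 1.62-fold and Pdk2 2.29-fold, and Pdk3, a minor pyruvate dehydrogenase kinase, rose 3.62-fold. Pdk4, which spares pyruvate during fasting, spread widely after TAC, 9942 to 18929.7 in sham and 2790.0 to 22657 after TAC (log2 fold change -1.04 ± 0.38 (SE), adjusted p = 0.017), its groups overlapped, and it was not called by edgeR or DESeq2 or without TAC replicate 2 or 6. All 36 complex I subunits were lower (median -0.93), as were 36 of 39 subunits of complexes III, IV and V (median -0.84). Ndufs1, a core subunit of complex I, lay between 7808 and 9168 in sham (median 8189) and between 3313 and 6232 after TAC (median 4005). Atp5b, of the ATP synthase, fell 1.88-fold and Cox4i1 1.98-fold. Of 13 mRNAs of the mitochondrial genome 12 were lower (median -0.88), mt-Co1 falling 1.8-fold and mt-Cytb 1.697-fold; under quantile normalization, which gives the highest ranks the same value in every library, both changes are 0 and 6 of the 13 are lower. Mitochondrial ribosomal proteins fell in 60 of 77 cases, by less (median -0.41), but with the same total per library 26 were lower and 11 higher (median -0.10).

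Glucose genes went both ways, 14 of 35 rising and 12 falling, with a median of 0.05; with the same total per library 21 were higher and 8 lower. Slc2a1 (GLUT1), the transporter that does not need insulin, lay between 121 and 167 in sham (median 145) and between 275 and 606 after TAC (median 454), a 3.06-fold rise. Slc2a4 (GLUT4), the transporter that insulin moves to the surface, lay between 4829 and 5999 in sham (median 5454) and between 1611 and 3801 after TAC (median 2149.6), a 2.33-fold fall. Neither overlapped between groups. The lactate exporter Slc16a3 rose 11.1-fold and G6pdx, which opens the pentose phosphate pathway, 3.17-fold, while the glycogen phosphorylase Pygm fell 2.22-fold and Hk2, Pkm and Gys1 were not called. Creatine and oxygen buffering genes split in the same manner: Ckm fell 2.71-fold and myoglobin (Mb) 2.93-fold, and Ckb rose 1.38-fold with overlapping groups.

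These splits ran between forms of the same protein. A share within a pair of genes does not depend on the scaling of a library. It was taken after dividing each level by exon length. The pairs are a chosen set and do not stand for all such pairs. In all 13 pairs examined, the share of the form that is broadly or fetally expressed was higher in every TAC library than in every sham library (exact two-sided permutation test, p = 0.00216 for each pair and after adjustment over the 13, the smallest the design allows). Slc2a1 made up 2.61 ± 0.307% in sham and 17.6 ± 7.303% after TAC of the pair with Slc2a4 (SD, n = 6 in each group here and below). Pfkp made up 1.87 ± 0.204% in sham and 13.02 ± 4.78% after TAC of the pair with Pfkm, Eno1 2.91 ± 0.245% in sham and 14.9 ± 5.61% after TAC of the pair with Eno3, and Ldha 17.5 ± 0.974% in sham and 42.1 ± 6.32% after TAC of the pair with Ldhb. For the respiratory chain, Cox6a1 made up 4.34 ± 0.412% in sham and 13.8 ± 3.39% after TAC of the pair with Cox6a2, and Cox8a 9.25 ± 0.421% in sham and 22.6 ± 4.7% after TAC of the pair with Cox8b. Of the sarcomere, Myh7 made up 0.677 ± 0.198% in sham and 3.94 ± 3.14% after TAC of the myosins, where TAC replicate 3 alone reached 10.2%, and Acta1 3.16 ± 1.63% in sham and 9.35 ± 1.56% after TAC of the pair with Actc1. The shares of Cox7a2, Hk1, Pgam1, Ckb and Slc25a5 rose from means of 21.8%, 34.7%, 1.798%, 3.05% and 7.31% to 34.8%, 48.6%, 8.59%, 11.2% and 18.3%. In 9 of the 13 pairs the broad or fetal form rose and its partner fell. Cox8a was not called while its partner Cox8b fell, Acta1 and Hk1 rose while Actc1 and Hk2 were not called, and Cox7a2 fell by less than Cox7a1. Macrophage and fibroblast markers rose in the same libraries, and their part in these shares was not tested.

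**Figure D3:**
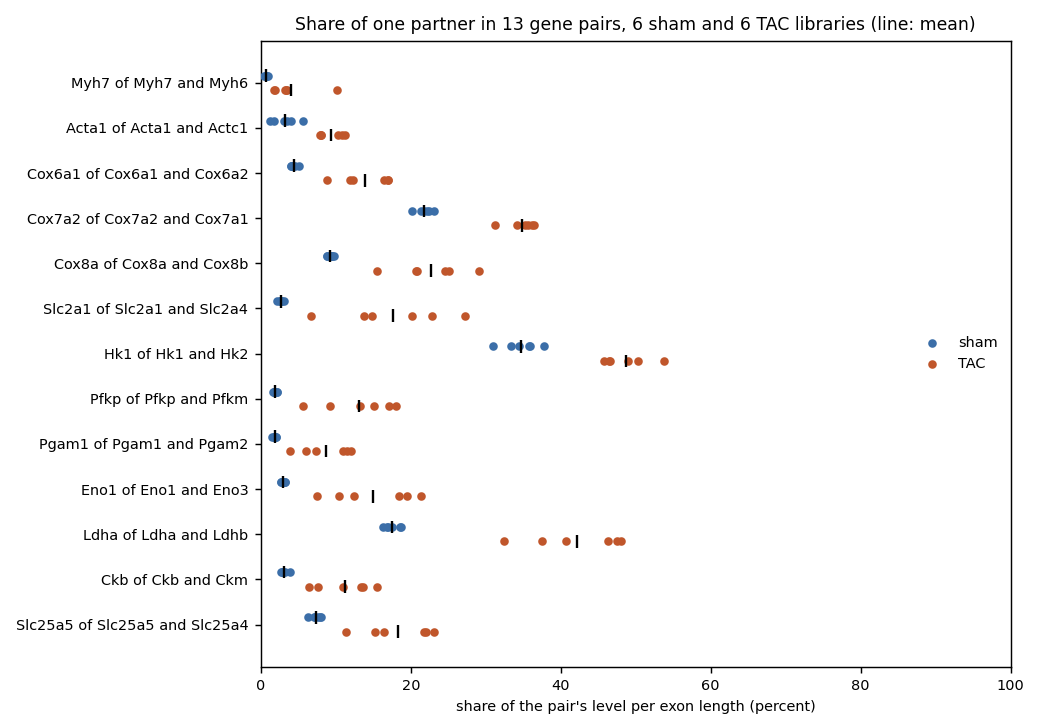
Share of the first-named gene in each of 13 pairs, in percent of the pair's summed level per exon length, with 1 point per library and a line at each group mean. The 6 TAC points of each pair lie to the right of its 6 sham points, by the most for Ldha and Slc2a1 in percentage points.

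In the insulin and IGF axis both the ligands and the intracellular parts held genes that rose and genes that fell. Igf1, made by macrophages and fibroblasts, lay between 152 and 211 in sham (median 177) and between 510.5 and 853 after TAC (median 624), a 3.73-fold rise (log2 fold change 1.87 ± 0.16 (SE), adjusted p = 3.0e-11), and Igf2 fell 1.901-fold. The insulin receptor Insr fell 1.35-fold and the receptor of IGF1, Igf1r, rose 1.196-fold, both with overlapping groups, the latter not called by edgeR or without any 1 of 5 libraries (sham 1 or 5, TAC 2, 3 or 6). Irs2, the other substrate of heart muscle, was 225, 301 and 504 in sham and 185, 238 and 959 after TAC and was not called (adjusted p = 0.84). Downstream, Akt2, the Akt form of insulin-stimulated glucose uptake, lay between 1815 and 2205 in sham (median 1939) and between 1096 and 1570.1 after TAC (median 1137), a 1.59-fold fall, while Akt1, Pik3ca, Mtor and Tsc1 were not called; with the same total per library Pik3ca, Mtor and Tsc1 were called higher. The adaptors Grb10 and Grb14, which dampen receptor signalling, went opposite ways: Grb10 rose 1.29-fold and Grb14 fell 1.91-fold. The mTOR inhibitor Deptor fell 1.56-fold and Eif4ebp1 rose 1.496-fold. In all, 10 of 38 genes were higher and 12 lower, and the list's median of -0.11 became 0.20, with 19 higher and 6 lower, with the same total per library. In the list of FoxO, atrophy and autophagy genes 13 of 23 fell and 2 rose. That balance turns to 8 lower and 10 higher with the same total per library. The atrophy ligases Fbxo32 and Trim63 fell 1.57-fold and 1.33-fold, Klf15 1.89-fold, Txnip 1.86-fold and Pink1 2.89-fold, and Bnip3 and Gabarapl1 were not called. Foxo1 itself fell 1.34-fold. With the same total per library Bnip3 was called higher, and the falls of Insr, Foxo1, Fbxo32 and Trim63 were not called.

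Of 17 endothelial markers 14 were lower and 1, Pdpn, a gene of lymphatic vessels and of fibroblasts, was higher (median -0.55). With the same total per library 8 of the 17 were lower and 1 higher (median -0.24). Kdr, the VEGF receptor of capillaries, lay between 2328 and 3289.5 in sham (median 2577) and between 1039 and 2248 after TAC (median 1171), a 1.97-fold fall. Cdh5 fell 1.54-fold and the capillary carbonic anhydrase Car4 3.27-fold, while Pecam1 fell 1.17-fold. With the same total per library Pecam1 was not called (log2 fold change 0.08), nor was it without sham replicate 1 or 5 or TAC replicate 2 or 3. Among the factors that act on vessels 10 of 20 fell and 2 rose (5 and 4 with the same total per library), Vegfb, the form of oxidative muscle, falling 2.06-fold, Vegfa 1.46-fold and Angpt1 2.27-fold, and Vegfd rising 2.47-fold; the call of Vegfa was lost with the same total per library. Of 11 mural cell markers 3 rose and 5 fell, which turns to 5 higher and 4 lower with the same total per library; Cnn1, a calponin of contractile cells, rose 34.3-fold and the pericyte gene Rgs5 fell 1.698-fold.

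Of 19 genes of the circadian clock and its output 5 rose, 9 fell and 5 were not called. The called share was 73.7%, against 64.1% of all genes tested. As a log2 difference from the sham mean, the list's median was 0.04 in TAC 1 and 0.01 in TAC 3. These lay within the sham range of -0.11 to 0.10, and the other TAC libraries held -0.73 to -0.30. Dbp, a direct target of the clock activators, lay between 606 and 788 in sham (median 716) and between 106 and 293 after TAC (median 155), a 4.09-fold fall, with Hlf and Tef falling 3.76-fold and 2.41-fold. Nr1d1 (REV-ERB alpha) lay between 776 and 1344 in sham (median 1009.8) and between 239.9 and 456 after TAC (median 394), and Arntl (BMAL1), which it represses, rose 2.38-fold. The hour of tissue collection is not in the labels, so its part in these changes cannot be told apart from that of surgery if the groups were taken at different hours.

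Markers of other cells that the apex could hold were mostly low. Adipocyte genes were near 0, with Adipoq at most 1.13 and Cfd at most 5.17 in any sham library, and the atrial genes Myl7 and Sln at most 2.26 and 1.03 in sham and 2.14 and 0 after TAC. T cell, neutrophil and mast cell genes were too low for most to be tested: 2 of 11, 2 of 13 and, with B cells, 4 of 12. Haemoglobin Hbb-bs fell 1.79-fold and Alas2, of haem synthesis, 1.84-fold, and neither was called with the same total per library. All 8 ventricular markers were detected in every library, Tnni3 at 12966 or more. Of these 8 genes 6 fell, and their summed level was 903436 to 1028990.0 in sham and 391454 to 737710.0 after TAC; the part of this lower level in the rises of other cells' genes was not tested.

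Whether these responses are particular to IRS1KO hearts was asked by the difference of the TAC responses in the same model. In WT 54.9% of the tested genes were called (28.3% higher and 26.6% lower) and in IRS2KO 62.4% (31.3% and 31.1%). The response differed from WT for 15 genes (0.110% of those tested), 5 with the larger value in IRS1KO (0.0365%) and 10 with the smaller (0.0730%). It differed from IRS2KO, which shares the Cre, for 56 (0.409%), 36 larger (0.263%) and 20 smaller (0.146%). None of the 15 largest rises, the 15 largest falls and the 10 largest gains and losses in mean was among them: for Tnc the difference from WT was 0.88 ± 0.74 (SE, adjusted p = 0.73), and for Col11a1, which rose by 3.96 in WT, it was 3.04 ± 0.87 (adjusted p = 0.22). Ces1d fell by 3.40 on the log2 scale in WT, and the difference was -1.50 ± 0.76 (adjusted p = 0.58). For Nppa the response was 2.31 in IRS1KO, 3.80 in WT and 3.59 in IRS2KO, with differences of -1.49 and -1.28 that missed the threshold (adjusted p = 0.055 and 0.061). Its sham mean was 4045 in IRS1KO against 594 in WT, and its TAC means were 19972 and 8452.

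The genes whose responses differed were of several kinds. Csf1, the growth factor of macrophages, was not called in IRS1KO (596 to 869.8 in sham and 586 to 896 after TAC) and rose by 0.97 in WT, a difference of -0.92 (adjusted p = 0.034). Its IRS1KO sham mean of 719.7 already lay above the WT sham mean of 469. Nr1d1 fell by 1.45 in IRS1KO and was 0.01 in WT (difference -1.46, adjusted p = 0.030). Mgp, the matrix Gla protein that keeps vessels free of calcium deposits, rose by 1.28 in IRS1KO and by 0.36 in WT, from sham means of 927 and 1371 to TAC means of 2218 and 1782. Ephb1, an ephrin receptor, fell by 2.31 in IRS1KO and by 0.69 in WT, and Egfl7, a secreted protein of endothelium, fell by 0.84 in IRS1KO and was 0.06 in WT. Nxpe4 stood at 3.23 to 11.4 in sham and 13.6 to 27.1 after TAC in IRS1KO and at 214 to 255 in WT sham, so its difference (adjusted p = 0.00070) compares a low gene with one expressed at another level. Ssbp2, Snap29 and Epb41l3 differed upwards and Plekha7 downwards, by 0.67, 0.57, 0.95 and -1.13.

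Against IRS2KO the response differed for Acta2, which was not called in IRS1KO (log2 fold change -0.09) and rose by 1.45 in IRS2KO (difference -1.54 ± 0.22, adjusted p = 0.00042). Its sham means were 5603 ± 887 and 1588 ± 206, and its TAC means 5274 and 4419. The IRS1KO sham mean was thus above that of the IRS2KO sham hearts. Itgb6 fell by 1.27 in IRS1KO and was 0.28 in IRS2KO, and Pirt, Plekha7 and Ephb1 differed downwards. Tlr8, a receptor for RNA in phagocytes, rose by 2.99 in IRS1KO and 1.25 in IRS2KO. Trp53inp1, Fam117b and Rasgef1b fell by 1.19, 1.38 and 0.89 in IRS2KO and were not called in WT; in IRS1KO they were 0.26, 0.20 and 0.58, of which Rasgef1b passed the test, a call lost without sham replicate 2 or 5 or TAC replicate 1. Nox4, Chac1, Bnip3 and Gabarapl1 also differed from IRS2KO, Nox4 rising 4.76-fold in IRS1KO. Their differences were not followed through the alternatives. TAC replicate 1 stood above the other TAC libraries for Chac1 (133 against 57.5 to 72.6) and Gabarapl1 (1213 against 822 to 888). Without TAC replicate 1, Chac1 was called lower in IRS1KO (log2 fold change -0.57), and 17 genes in all differed from IRS2KO. Without TAC replicate 5 the counts were 53 against WT and 180 against IRS2KO, so that library moves both by more than 1.5 times; without TAC replicate 4 they were 2 and 18, and without sham replicate 6 the first was 3. Of the 10 genes named against WT, Nxpe4 was the one whose difference stayed called under every alternative tried, and against IRS2KO the differences of Acta2, Nxpe4, Plekha7 and Trp53inp1 held likewise. Those of Tlr8 and Fam117b were each lost without any 1 of sham replicates 1, 2, 5 and 6 and TAC replicates 1, 2, 4 and 6, and that of Fam117b also without sham replicate 4 or TAC replicate 3. The difference of Itgb6 was lost without TAC replicate 1, that of Rasgef1b without sham replicate 2 or TAC replicate 1 or 4, and that of Ephb1 without sham replicate 1 or 5 or TAC replicate 1, 2 or 4.

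**Figure D4:**
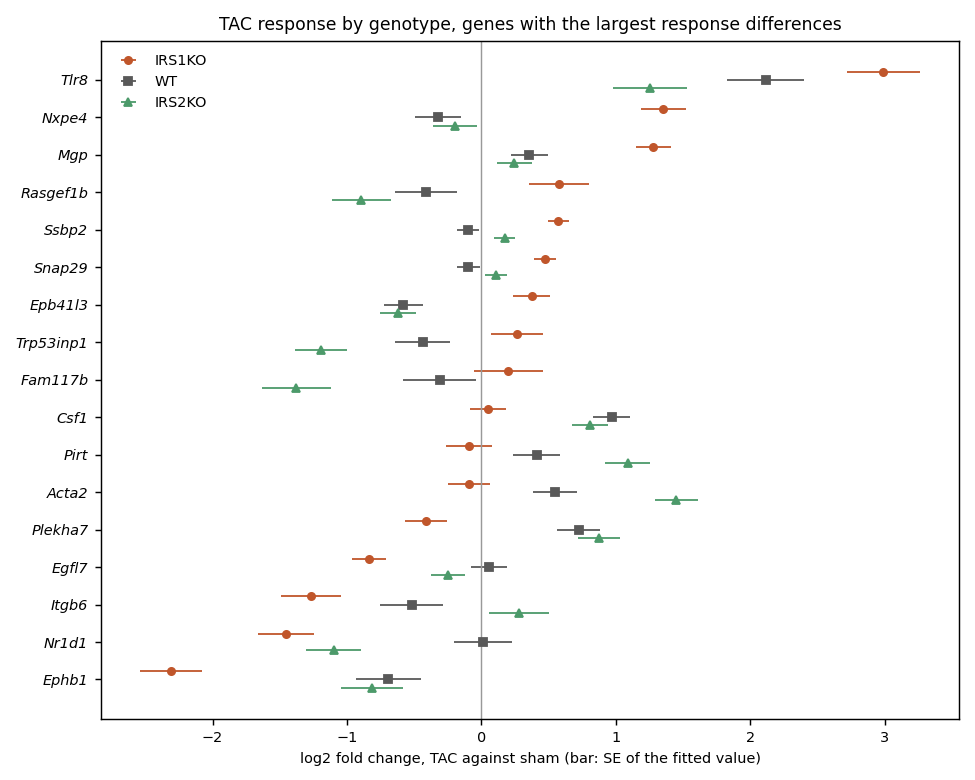
Log2 fold change of TAC against sham in IRS1KO, WT and IRS2KO hearts, with the SE of the fitted value as a bar, for 17 genes whose response differed from WT or IRS2KO. Ephb1, Egfl7, Itgb6 and Nr1d1 lie to the left in IRS1KO, and Csf1, Acta2 and Pirt lie near 0 in IRS1KO and to the right in IRS2KO.

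The 6 TAC hearts did not respond to the same degree. The median SD of log2(value + 1) was 0.18 in sham and 0.22 after TAC, and 63.2% of the tested genes had the larger SD after TAC. Of 66 lists with at least 3 tested genes, 36 had a median at least 0.5 from sham over the TAC libraries. In 29 of these TAC 5 was the library nearest to sham, TAC 3 in 5 and TAC 1 in 2. For beta-oxidation the median of TAC 5 lay 0.63 below the sham mean and that of TAC 2, the farthest, 1.74 below. For fibrillar collagens the range was 2.58 to 3.62, and for recruited macrophage markers 2.41 (TAC 3) to 4.62 (TAC 4). For mitosis genes the range was 3.66 to 4.66, with TAC 5 lowest. The labels hold no measure of the pressure gradient, so its part in this spread was not tested.

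**Figure D5:**
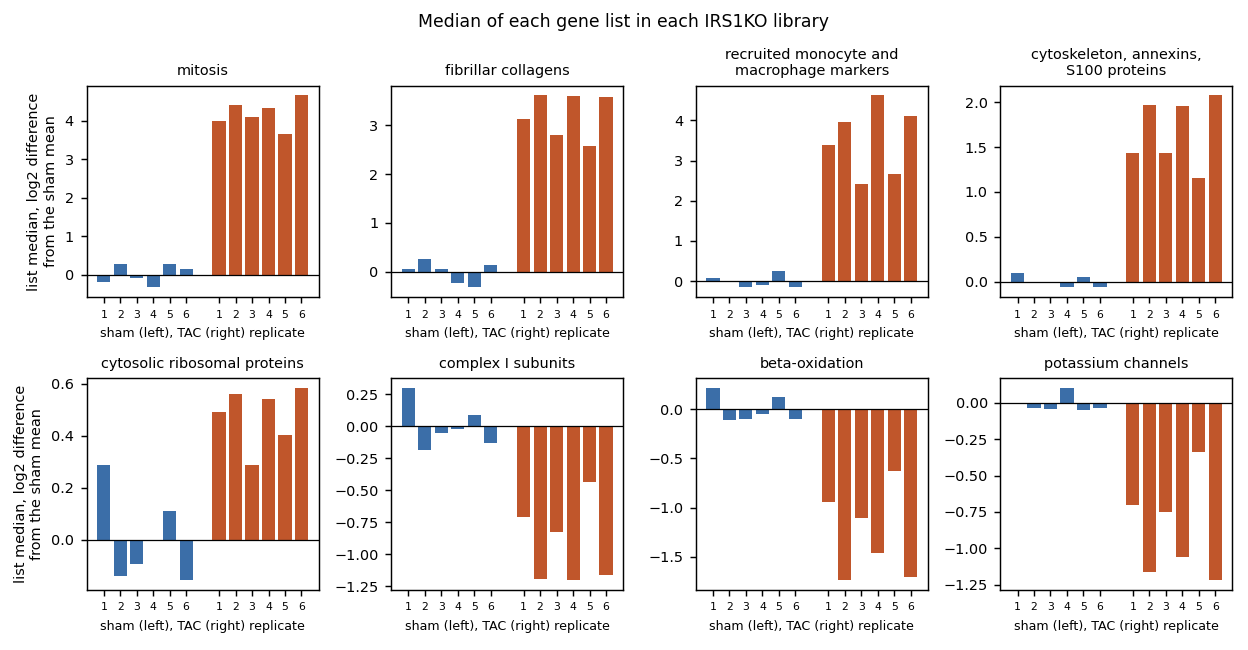
Median over the tested members of 8 gene lists in each library, as the log2 difference from the mean of the sham libraries, with sham replicates 1 to 6 at the left and TAC replicates 1 to 6 at the right of each panel. TAC 5 and, in most panels, TAC 1 and TAC 3 lie nearer to sham than TAC 2, TAC 4 and TAC 6.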

How the data were processed

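Messenger RNA libraries of the heart apex (mirVana total RNA and TruSeq Stranded mRNA, per the labels' protocols) were analysed from the 1 table of normalized counts that the authors deposited for all 35 libraries. Its values are a signal unit, gene counts divided by a size factor per library, and the deposited steps of these values gave whole reads for 100% of values (within 0.001 of a whole number). Per the submitters' processing notes the tools were HISAT2 2.0.6, HTSeq 0.7.1 and DESeq2, and the build GRCm38.

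Genes with a mean of at least 10 over the 35 libraries entered 1 limma 3.58.1 model (R 4.3.3) of 6 group means on log2(value + 1), with trend and robust settings, and Benjamini-Hochberg adjustment at 0.05. Changes of low genes are understated on this scale. Genes near 0 in sham pass the filter only through other libraries, which bears on the shares called higher in lists of such genes. Folds given as "-fold" are ratios of group means, and values in brackets with SE come from the fit. The same model gave the differences of response. Alternatives were fits of the recovered reads (edgeR 4.0.16, DESeq2 1.42.0), other scalings, pseudocounts, filters and sample sets. On simulated data of the IRS1KO comparison with 200 changed genes the procedure recovered 58.2%, 83.6% and 100% of 1.5-, 2- and 4-fold changes. Of its 166 calls 5 were false. The simulation changed 200 of 13695 genes, whereas 64.1% were called in the data, so its rates need not carry over. Gene names came from GENCODE vM21 for 26904 of 27012 IDs.

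The genes named are Irs1, Irs2 and 3 markers, the 15 largest rises and falls, the 10 largest gains and losses in mean, key members and up to 3 further strongly changed members of each list, paired isoforms, and the 5 largest response differences in each direction. Genes named because they were a list's few exceptions or were not called were chosen after their values were seen. Some genes that the rule names are not reported here. The comparison and the lists were chosen with earlier results of these data known.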

Additional observations from a re-analysis of the deposited data

Results flagged for a closer look

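In groups of 6 libraries, a value was singled out when its gap to the next exceeded Dixon's 95% critical share of the group's range. This held for 46 of 718 groups examined (6.41%), and chance gives about 1 in 20. Sham 1 set 12 of them, TAC 5 set 7, and Sham 5 and TAC 1 set 6 each. The normalized counts in brackets are those of the library named. Sham replicate 1 was highest of its group for Rgs5 (10585). Sham replicate 1 was lowest of its group for Acvr2a (237), Etv4 (0), Flnc (3396), Irs1 (0), Mtor (830.5), Mybpc2 (208), P4ha3 (0), Ppara (157), Ryr2 (21227), Vegfd (11.8) and Xirp2 (3062). Sham replicate 2 was highest of its group for Cdh3 (0.969). Sham replicate 2 was lowest of its group for Bmp6 (166), Fam117b (184), Herpud1 (1717) and Myl7 (0.969). Sham replicate 3 was lowest of its group for Akt1 (2172). Sham replicate 4 was highest of its group for Myh6 (413176). Sham replicate 4 was lowest of its group for Bdh1 (1239) and Cthrc1 (0). Sham replicate 5 was highest of its group for Adgre1 (165), Cd74 (3069), H2-Eb1 (1443), Mgl2 (125) and Muc15 (1.13). Sham replicate 5 was lowest of its group for Arc (22.6). Sham replicate 6 was highest of its group for Sln (1.03). Sham replicate 6 was lowest of its group for Ccl7 (1.03) and Tpm2 (172). TAC replicate 1 was highest of its group for Chac1 (133), Gabarapl1 (1213) and Trp53inp1 (666). TAC replicate 1 was lowest of its group for Ccnd1 (238), Irs1 (0) and Vegfd (28.2). TAC replicate 3 was highest of its group for Cfd (1.91) and Gys1 (1820). TAC replicate 5 was highest of its group for Adrb1 (220.1), Akt1 (2940.0) and Gnb3 (59.5). TAC replicate 5 was lowest of its group for Ccn2 (2818), Osmr (569), Thbs1 (587) and Vcan (1102). The Myh7 share in the pair Myh7 and Myh6 was highest in TAC replicate 3 (10.2%).

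The response to TAC differed between IRS1KO and WT, by the interaction term of the limma model, for Csf1 (-0.92), Egfl7 (-0.89), Epb41l3 (0.95), Ephb1 (-1.62), Mgp (0.92), Nr1d1 (-1.46), Nxpe4 (1.68), Plekha7 (-1.13), Snap29 (0.57) and Ssbp2 (0.67), each value being the IRS1KO minus the WT log2 fold change. The response to TAC differed between IRS1KO and IRS2KO, by the interaction term of the limma model, for Acta2 (-1.54), Bnip3 (0.79), Chac1 (1.34), Epb41l3 (0.99), Ephb1 (-1.50), Fam117b (1.58), Gabarapl1 (0.66), Itgb6 (-1.55), Mgp (1.03), Nox4 (1.25), Nxpe4 (1.55), Pirt (-1.18), Plekha7 (-1.29), Rasgef1b (1.47), Tlr8 (1.73) and Trp53inp1 (1.46), each value being the IRS1KO minus the IRS2KO log2 fold change.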

How the results depend on the processing

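Under 24 alternatives, 255 of the 295 called genes named in the text and fitted in the model kept their call and direction, 38 lost the call in at least 1, 4 turned in sign and 2 went to 0, while 32 named genes that were not called became called in at least 1. With the same total per library 7181 genes were called higher and 2164 lower, and 6606 of the 8777 calls were kept; quantile normalization gave 3971 and 5058. The other alternatives stayed within 1.5 times, and leaving out 1 library gave 4189 to 4508 higher and 4028 to 4396 lower. With the same total per library the log2 fold changes turned to 0.26 for Bnip3, 0.19 for Mtor, 0.069 for Nexn, 0.083 for Pecam1, 0.16 for Pik3ca, 0.023 for Smad3 and 0.19 for Tsc1. Under quantile normalization Tnnt2 turned to 0.26 and mt-Co1 and mt-Cytb to 0; the cause was not tested for Tnnt2.

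The difference from WT (5 higher, 10 lower) gave 25 and 29 genes in DESeq2, 117 and 75 with library weights, 2 higher in edgeR without filter and with only IRS1KO and WT libraries, 6 lower under quantile normalization and 3 lower with the same total. Leaving out 1 library gave 2 to 29 higher and 0 to 24 lower; the count of 0, from limma without TAC replicate 4, stands beside 999 genes of either direction at an unadjusted p under 0.05 in that fit. The difference from IRS2KO (36 higher, 20 lower) gave 106 and 51 in DESeq2, 92 and 46 with library weights, 14 and 12 without filter, 9 and 12 in edgeR without filter and with only IRS1KO and IRS2KO libraries, and higher counts of 21 in edgeR, 18 under quantile normalization and 9 with the same total. Leaving out 1 library gave 6 to 115 higher and 10 to 65 lower. The cause of these shifts was not tested.

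Sham and TAC libraries share replicate numbers, but their deviations correlated by -0.07 to 0.19 between same numbers, with 3 of 6 above 0.1, so the numbers were not taken to pair them, and 3 of 6 libraries correlated best with their own number. The replicate block gave 4529 higher and 4467 lower genes, and 6 and 11 against WT and 44 and 21 against IRS2KO, keeping 12 of the 15 and 49 of the 56 differences. Depth limited what could be tested: 13695 of 27012 genes reached the mean of 10.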

Other observations

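Immediate early genes, which cells switch on within minutes of a stimulus, were changed on day 3: 16 of 26 tested were higher and 4 lower (Klf2, Klf4, Dusp1 and Arc), with a median log2 fold change of 0.80, against 32.4% and 31.7% of all genes tested. With the same total per library 19 were higher and 1 lower, and Klf4, Dusp1 and Arc were not called. The call of Arc was also lost in edgeR, in DESeq2 and without any 1 of 8 libraries (sham 1, 2, 3, 4 or 6, TAC 2, 4 or 6), and that of Dusp1 without sham replicate 1 or 4 or TAC replicate 2, 4 or 6. Myc, a driver of growth, lay between 35.7 and 51.8 in sham (median 47.6) and between 126 and 277 after TAC (median 211), a 4.63-fold rise, and Fos was 9.31 to 21.4 in sham and 52.5 to 292 after TAC (adjusted p = 1.4e-06). Lysosomal genes rose in 14 of 20 cases and fell in 3. In the antioxidant, haem and metal list 14 of 25 rose and 7 fell: Hmox1, which breaks down haem, rose 14.5-fold without overlap, while the mitochondrial enzymes Sod2 and Prdx3 fell.

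Enzymes of nucleotide and polyamine synthesis rose in 11 of 20 cases and fell in 2 (17 and 2 with the same total per library). Rrm2, the ribonucleotide reductase subunit of dividing cells, rose 5.52-fold and Uck2, a uridine-cytidine kinase, 7.56-fold. Among 15 tested long non-coding RNAs of a chosen list 10 rose and 2 fell. Of all 187 lincRNA genes tested, by contrast, 24 were higher and 93 lower. H19, an imprinted RNA of fetal tissue, rose 3.79-fold, and Kcnq1ot1 and Mhrt fell. The call of Kcnq1ot1 was lost with the same total per library and without filter. It was also lost without any 1 of 9 libraries (sham 2, 3, 4 or 6, TAC 1, 2, 4, 5 or 6). Malat1 was not called (3588 to 5621 in sham and 3918 to 5642 after TAC).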
